A study of Mus musculus with 17 samples.

Results

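The replication-dependent histone genes of the mouse were examined for histone H3.3 in newborn lens chromatin. They were taken as the protein-coding genes on chromosomes 1 to 19 of the GENCODE annotation of mm10 whose symbols start with Hist1h, Hist2h, Hist3h or Hist4h, which gave 67 of the 20807 protein-coding genes there. They comprised 6 genes for H1, 18 for H2A, 18 for H2B, 12 for H3 and 13 for H4. The chromatin came from lenses of CD1 mice that had been microdissected into lens epithelium, the layer of cells that can still divide, and lens fibers, the elongated cells that leave the cell cycle as they differentiate. H3.3 was immunoprecipitated with an anti-H3.3 antibody in 2 libraries of epithelium and 2 of fibers, labelled as biological replicates, each from the pooled lenses of many animals. The sample titles give postnatal day 1 and the extract protocol postnatal day 0.5, and the label count of 150 lenses per replicate differs from that in the study's methods. The animals carried no transgene or treatment that the labels name. The series has 17 samples, and its bisulfite libraries and its input control are not analysed here.

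Replication-dependent histone genes supply the bulk of histone protein while DNA is being copied in S phase. They lie in clusters, their mRNAs end in a conserved stem-loop in place of a poly(A) tail, and H2A and H2B genes often stand head to head and share the DNA between their starts. H3.3, the protein measured here, is made from other genes that are active outside S phase, and it is deposited without DNA replication, mostly at transcribed genes and regulatory elements.

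The measurement was a list of H3.3 islands per library, an island being a run of windows that a domain caller found enriched in H3.3 reads, with its read count. Epithelium libraries held 10389 and 14434 islands with 1331369 and 1430373 reads in them, and fiber libraries 27059 and 35940 islands with 5041885 and 5359085 reads. Fiber libraries thus held more islands across the whole genome, and total library depth is not known from these lists. Islands lay over 3 and 4 of the 4 epithelial markers Foxe3, Cdh1, Pdgfra and Pax6 in the epithelium libraries and over all 4 in both fiber libraries. Of 8 fiber markers, 5 and 6 carried an island in epithelium and 8 in each fiber library, Bfsp1 and Lim2 in fiber libraries alone. Of 6 markers of vessel, blood, retinal and connective tissue cells, 1 and 2 carried an island in epithelium and 2 and 3 in fibers, while Ptprc, Crx and Col1a1 carried none. For scale, 27.2% and 32.0% of all protein-coding genes carried an island in the epithelium libraries and 53.5% and 59.5% in the fiber libraries. An island is no measure of a marker's expression, and the part of other cells in the results was not tested. Below, values of the 4 libraries are given in the order epithelium replicate 1, epithelium replicate 2, fiber replicate 1 and fiber replicate 2.

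The DNA of the genes carried the marks of the family. A stem of 6 paired bases that starts with GG, closed around a loop of 4 bases that starts with TT, was searched for in the 200 bases after each annotated stop codon on the coding strand. It was present in 63 of 67 histone genes (94.0%) and in 15 of 20586 other protein-coding genes (0.0729%). It began at a median of 30 bases after the stop codon, with a range of 21 to 58. A common form was shared by 41 genes of the H1, H2A, H2B and H3 types, and the H4 genes used other stems. The following sites show the forms found, from Hist1h3a (chr13:23761890-23761905 on the minus strand), Hist1h2ba (chr13:23933730-23933745 on the minus strand), Hist1h4k (chr13:21750150-21750165 on the minus strand), Hist2h4 (chr3:96262939-96262954 on the minus strand), Hist1h4j (chr13:21735437-21735452 on the plus strand) and Hist2h2ac (chr3:96220418-96220433 on the minus strand), with stem and loop in capitals and all positions in mm10.
Hist1h3a: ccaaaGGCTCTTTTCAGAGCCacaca
Hist1h2ba: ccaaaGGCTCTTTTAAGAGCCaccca
Hist1h4k: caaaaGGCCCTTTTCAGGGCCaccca
Hist2h4: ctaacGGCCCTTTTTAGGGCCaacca
Hist1h4j: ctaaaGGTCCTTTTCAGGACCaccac
Hist2h2ac: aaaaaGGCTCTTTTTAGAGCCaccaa
The form shown for Hist1h3a was found in 41 genes, that of Hist1h2ba in 9, that of Hist1h4k in 8, those of Hist2h4 and Hist1h4j in 2 each and that of Hist2h2ac in 1. No match to this strict pattern was found in Hist2h2be, Hist1h2an, Hist1h3g and Hist1h4a.

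Promoters of 62 of the 67 genes were matched in the RefSeq table of GRCm38.p6, 250 bases before and 50 after the start. The CCAAT box (CCAAT on either strand) was present in 85.5% of them and in 37.4% of all 32851 promoters of that length. It was present in every matched promoter of H1, H2A, H2B and H3 genes but in 3 of 12 H4 promoters (25.0%). TATAAA on either strand was present in 56.5% of the histone promoters against 13.6% of all promoters. The octamer ATTTGCAT on either strand was present in 21.0% against 1.74%, in 7 of 18 H2A and 6 of 16 H2B promoters and in none of the other types. The windows of head-to-head H2A and H2B genes overlap, so such a pair can hold the same octamer. These letters do not overlap each other, and a match is a description of the sequence, not a binding site. Below are promoters of Hist2h3b (chr3:96268404-96268703 on the plus strand) and Hist1h2bj (chr13:22042948-22043247 on the plus strand), whose bodies were covered by islands in every library, of Hist1h4k (chr13:21750504-21750803 on the minus strand), which had an island in fiber replicate 2 alone, and of Hist1h2ba (chr13:23934107-23934406 on the minus strand), which had none, with the 3 motifs in capitals.
Hist2h3b: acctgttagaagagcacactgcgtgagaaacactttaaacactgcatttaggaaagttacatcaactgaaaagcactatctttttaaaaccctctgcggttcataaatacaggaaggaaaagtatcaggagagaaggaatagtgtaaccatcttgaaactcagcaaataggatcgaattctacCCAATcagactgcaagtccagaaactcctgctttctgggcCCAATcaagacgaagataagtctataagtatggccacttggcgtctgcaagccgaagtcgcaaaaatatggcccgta
Hist1h2bj: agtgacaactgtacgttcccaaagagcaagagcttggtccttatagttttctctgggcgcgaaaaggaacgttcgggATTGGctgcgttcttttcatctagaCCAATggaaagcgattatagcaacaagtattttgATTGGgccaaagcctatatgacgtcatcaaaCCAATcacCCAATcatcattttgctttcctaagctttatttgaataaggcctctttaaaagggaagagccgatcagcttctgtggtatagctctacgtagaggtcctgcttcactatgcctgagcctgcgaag
Hist1h4k: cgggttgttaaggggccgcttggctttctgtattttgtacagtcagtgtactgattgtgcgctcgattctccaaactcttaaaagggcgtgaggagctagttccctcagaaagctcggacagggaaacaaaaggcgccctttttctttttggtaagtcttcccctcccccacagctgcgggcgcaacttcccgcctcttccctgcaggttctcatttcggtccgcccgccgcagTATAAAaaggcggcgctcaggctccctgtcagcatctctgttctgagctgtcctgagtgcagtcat
Hist1h2ba: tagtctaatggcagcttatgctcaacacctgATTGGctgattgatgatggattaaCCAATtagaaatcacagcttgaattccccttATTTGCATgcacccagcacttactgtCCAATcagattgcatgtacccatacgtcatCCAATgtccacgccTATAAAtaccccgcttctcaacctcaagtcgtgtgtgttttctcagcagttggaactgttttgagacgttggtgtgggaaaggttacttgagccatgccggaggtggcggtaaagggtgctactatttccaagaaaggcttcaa
The Hist2h3b and Hist1h2bj windows held CCAAT boxes and no TATAAA, and that of Hist1h4k held a TATAAA and no CCAAT box. The Hist1h2ba window, which had no island in any library, held all 3 motifs.

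H3.3 islands lay over most of the histone genes in both compartments. An island overlapped the body of 46 and 51 of the 67 genes in the epithelium libraries, where 27.2% and 32.0% of all protein-coding genes had one, and of 61 and 65 in the fiber libraries, where 53.5% and 59.5% did. The histone genes stood above all protein-coding genes by 42.8 ± 1.93 percentage points in epithelium and by 37.5 ± 0.033 percentage points in fibers (SD, n = 2 libraries each). All 4 libraries had an island over 39 of the 67 genes, against 20.0% of all genes. Every library thus showed the same order, with the histone genes above the rest.

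The histone genes are short, with a median body of 539 bp against 17629 bp for all protein-coding genes. The 48 histone genes of up to 1 kb had an island in 68.8 ± 2.95% of cases in epithelium and 91.7 ± 5.89% in fibers. The 579 other protein-coding genes of up to 1 kb had one in 7.34 ± 0.61% and 14.9 ± 1.59% of cases (SD, n = 2 libraries). This shorter background was chosen after the data were seen. Within the bodies, islands covered a mean of 57.8%, 62.0%, 81.3% and 88.1% of the bases of a histone gene and 8.61%, 9.04%, 23.3% and 23.1% of those of a protein-coding gene.

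More histone genes had an island in fibers than in epithelium. The share was 72.4 ± 5.28% in epithelium and 94.0 ± 4.22% in fibers (SD, n = 2 libraries each), a difference of 21.6 percentage points, and the libraries of the compartments did not overlap. The covered share of the body was 24.8 percentage points higher in fibers, 84.7 ± 4.81% against 59.9 ± 2.95%. With 2 libraries against 2 there are 6 arrangements and the smallest p is 0.33, which both differences reached (exact permutation test, two-sided, p = 0.33). For all protein-coding genes the difference was 26.9 percentage points in the share with an island and 14.4 in the covered share of the body. In percentage points, the histone genes thus differed less than the background in the first measure and more in the second. The levels are unlike, since the covered share at all protein-coding genes was 8.82% in epithelium and 23.2% in fibers, so this order depends on the scale. Among genes of up to 1 kb, the share with an island differed by 22.9 percentage points at the 48 histone genes and by 7.60 at the 579 others. When only the denser islands of each library were kept, from its median density up, it differed by 26.9 at the histone genes and by 22.8 at all genes. When each library was reduced to its 10389 densest islands, the difference at the histone genes was 9.70 percentage points and that of all genes 5.70 percentage points. When the bodies were widened by 5 kb on each side, the difference was 8.21 percentage points and the compartments overlapped (exact permutation test, p = 0.67).

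Gene by gene, the mean covered share of the body was higher in fibers at 42 of the 67 histone genes, equal at 24 and higher in epithelium at 1. Over all protein-coding genes it was higher in fibers at 58.3% and higher in epithelium at 4.93%, so the 62.7% of histone genes that were higher in fibers lay near the background. Of the 24 equal histone genes, 20 were wholly covered in all 4 libraries and 2 had no island. An island in both fiber libraries and neither epithelium library was found at 3 histone genes, Hist1h2af, Hist1h3g and Hist1h4f, that is 4.48% against 16.8% of all genes. In each fiber library the same island covered Hist1h2af, Hist1h3g and Hist1h4h, and Hist1h4h had an island in all 4 libraries. The reverse, both epithelium libraries and no fiber library, was found at none, against 0.250% of all genes. Only 9 histone genes lacked an epithelium island in both libraries, and 7 of these (77.8%) had one in at least 1 fiber library, against 41.8% of the 12829 such genes in all. In both fiber libraries an island was present at 3 of the 9 (33.3%) against 27.2%, a share near the background, and the other 4 had it in fiber replicate 2 alone. Of the 58 histone genes with an epithelium island, 39 (67.2%) had it in both replicates, against 54.3% of the 7978 such genes in all. Counted with the genes that had no epithelium island and so cannot disagree, the replicates disagreed at 19 of the 67 histone genes (28.4%), against 17.5%. At 12 of these the island was in replicate 2 and at 7 in replicate 1, and all 19 had an island in both fiber libraries, as did 79.1% of the 3642 protein-coding genes with an island in 1 epithelium library.

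Clusters differed in how completely their genes were covered. All 10 genes of the Hist2 cluster (chr3:96219865-96270132) had an island in all 4 libraries, and islands covered a mean of 84.6%, 88.0%, 94.1% and 97.8% of their bodies. Of all 50268 bases of that cluster, islands covered 23.6%, 29.2%, 52.3% and 62.6%, so much of the DNA between the genes entered islands in the fiber libraries. The lowest gene of the cluster was Hist2h2be, whose 2620-bp body was covered to 79.5%, 48.9%, 41.3% and 87.1%. The replicates of each compartment differed more there than the compartments did.

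The Hist1 genes lie on chromosome 13 and were split at gaps above 100 kb into the groups A (chr13:21715763-21837530, 18 genes), B (chr13:22035164-22043676, 5 genes), C (chr13:23531050-23764406, 29 genes) and D (chr13:23933773-23934851, 2 genes). All 5 genes of Hist1-B had an island in every library, and islands covered a mean of 98.2%, 100%, 98.2% and 100% of their bodies, above the Hist2 genes in each library. In Hist1-A, 12, 14, 15 and 18 of 18 genes had one. In Hist1-C, 16, 20, 28 and 29 of 29 genes did, or 62.1 ± 9.75% in epithelium and 98.3 ± 2.44% in fibers (SD, n = 2 libraries). This was the widest gap between the compartments among the 7 groups. No gene of Hist1-D had an island in any library. Islands covered 11.0%, 13.5%, 28.5% and 28.9% of the 233357 bases of Hist1-C. Hist1-C contains Hfe, an iron-homeostasis gene and the only other protein-coding gene inside the 7 groups, and it had no epithelium island and fiber islands over 16.5% and 30.1% of its body.

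Outside these clusters, Hist4h4 (chr6:136801553-136804415), a lone H4 gene, had an island in all 4 libraries, which covered 21.5%, 42.4%, 28.5% and 42.4% of its body at 42.0, 40.9, 36.8 and 45.0 reads per kb. Its coverage overlapped between the compartments. On chromosome 11, Hist3h2ba was wholly covered in all 4 libraries. Its neighbour Hist3h2a was wholly covered in epithelium replicate 1 and in both fiber libraries and lacked an island in epithelium replicate 2, where the nearest lay 4685 bases away.

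**Figure D1:**
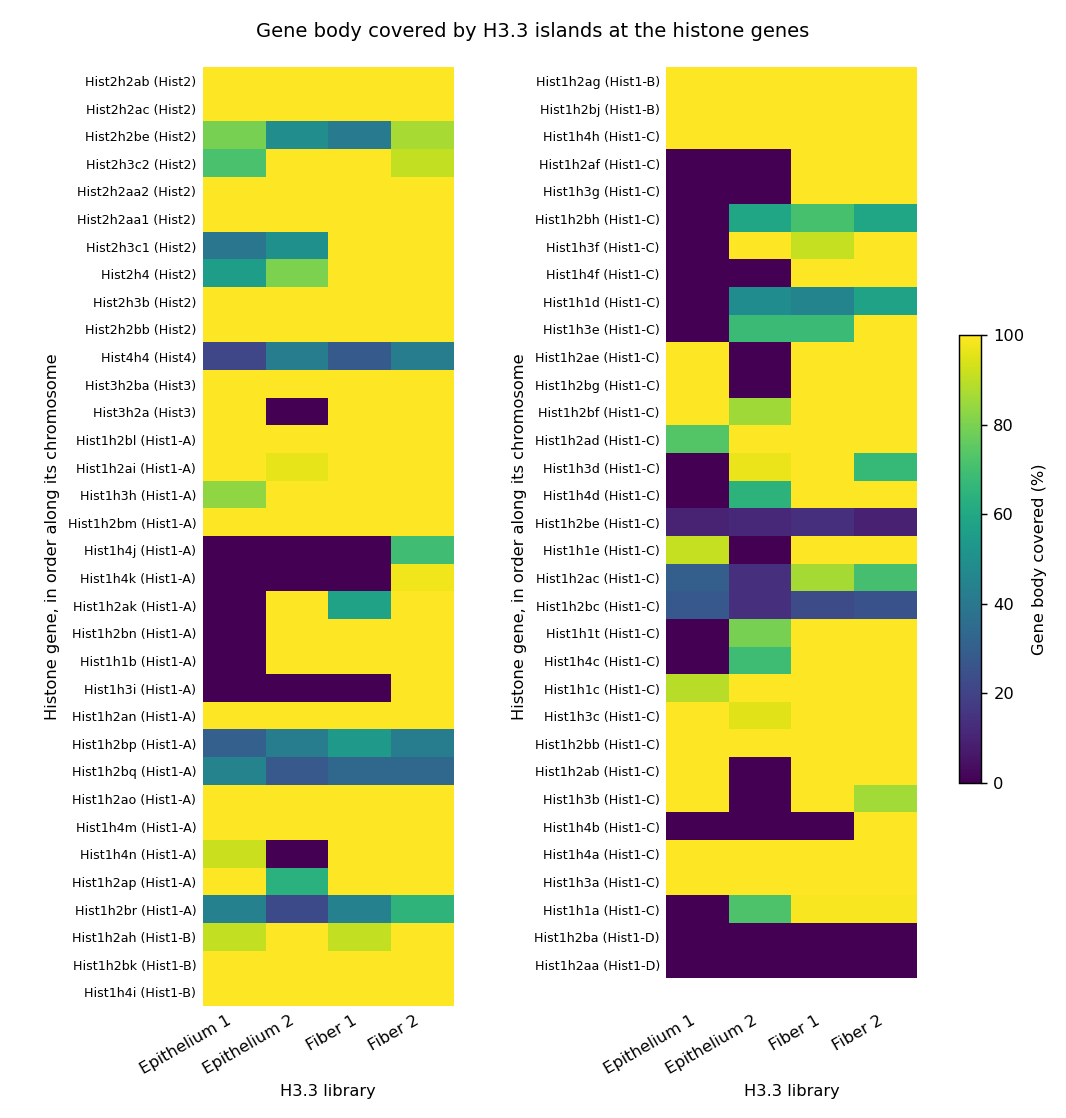
Percent of each histone gene body covered by H3.3 islands (colour, 0 to 100%) for the 67 genes (rows, in order along each chromosome, cluster in brackets) in the 4 libraries (columns). Hist1-B genes are covered to at least 90.9% in every library, Hist2 genes have an island in every library with bodies covered to between 39.2% and 100%, and Hist1h2ba and Hist1h2aa are at 0 in all 4 libraries.

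By type, no other group was covered more often in either epithelium library than the H2B genes, whose protein joins H2A in the nucleosome core. An island was present at 15, 13, 17 and 17 of the 18 H2A genes and at 15, 16, 17 and 17 of the 18 H2B genes. Of the 12 H3 genes, 7, 9, 11 and 12 had an island, and of the 13 H4 genes 7, 8, 10 and 13. Of the 6 genes for the linker histone H1, 2, 5, 6 and 6 had an island. The epithelium replicates differed by 3 genes at H1. The shares at H3 were above those at H4 and below those at H2B in both epithelium libraries, whereas H2A stood above H3 in replicate 1 and below it in replicate 2, so the order of these types did not hold between replicates.

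**Figure D2:**
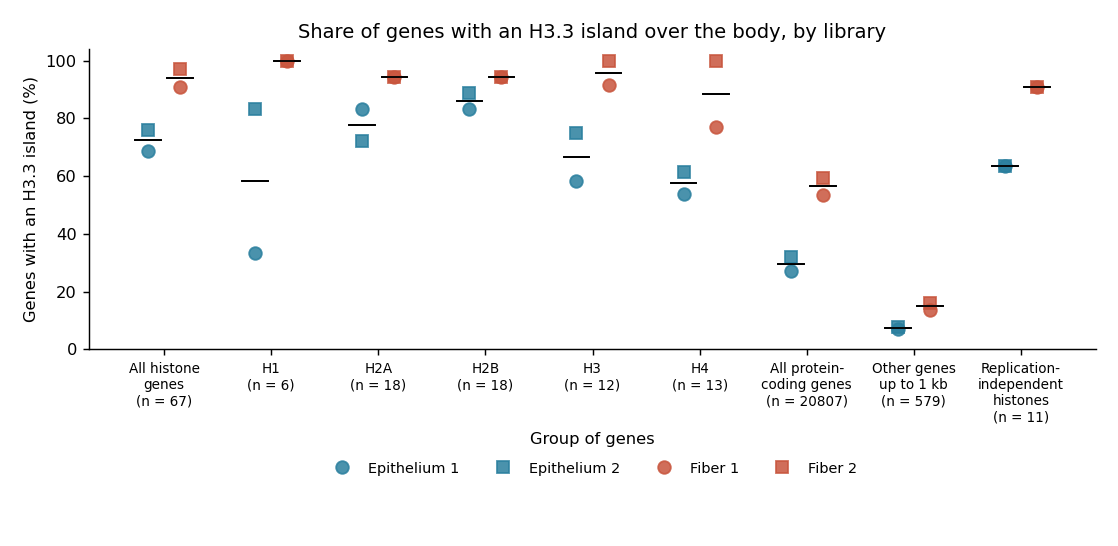
Percent of genes with an H3.3 island over the body (vertical axis) for the histone genes, each type and 3 comparison groups; points are libraries (blue epithelium, red fiber, circle replicate 1, square replicate 2) and bars are means of 2 libraries. Each type is above all protein-coding genes in every library, and the H1 replicates of epithelium lie farthest apart, at 33.3% and 83.3%.

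Among the genes for H3, the replication-dependent counterpart of the protein immunoprecipitated, Hist2h3b and Hist1h3a were wholly covered by islands in all 4 libraries. Hist1h3c was covered to 100%, 95.6%, 100% and 100%, and Hist1h3h to 83.2%, 100%, 100% and 100%. Hist2h3c2 and Hist2h3c1 had an island in all libraries but differ in body length. Hist2h3c2 was covered to 71.3%, 100%, 100% and 90.9%. Hist2h3c1 was covered to 39.2%, 50.2%, 100% and 100%, so that its fiber values were above both epithelium values. The other 6 H3 genes lacked an island in at least 1 epithelium library. Hist1h3f (0%, 100%, 91.1% and 100%), Hist1h3e (0%, 68.1%, 68.1% and 100%) and Hist1h3d (0%, 97.0%, 100% and 67.1%) were at 0 in epithelium replicate 1. Hist1h3b (100%, 0%, 100% and 86.1%) was at 0 in replicate 2. For these genes the spread between the epithelium replicates was as wide as any difference between the compartments. Hist1h3g (0%, 0%, 100% and 100%) did not overlap between compartments, and Hist1h3i (0%, 0%, 0% and 100%) had an island in fiber replicate 2 alone.

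H4 genes made up most of those with an island in fiber replicate 2 alone. These were Hist1h4j, Hist1h4k and Hist1h4b and the H3 gene Hist1h3i, covered to 69.4%, 97.8%, 100% and 100% in that library. The fiber replicates disagreed at these 4 of the 67 genes and at no other. In fiber replicate 2 the island over Hist1h4b also covered Hist1h4a, Hist1h3a and Hist1h1a, and that over Hist1h4k also covered Hist1h2ak and Hist1h2bn. The nearest island in fiber replicate 1 lay 11664 bases from Hist1h4j, 3096 from Hist1h4k, 2992 from Hist1h4b and 960 from Hist1h3i. In contrast Hist1h4h, Hist1h4i, Hist1h4m and Hist1h4a were wholly covered in all 4 libraries. H4 genes were thus found at both ends of the range, whereas no H4 gene other than Hist1h4j, Hist1h4k, Hist1h4b and Hist1h4f lacked an island in both epithelium libraries.

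Among the linker genes, Hist1h1c had an island in all 4 libraries, which covered 89.3%, 100%, 100% and 100% of its body. Hist1h1b, Hist1h1d, Hist1h1a and Hist1h1t lacked one in epithelium replicate 1 and Hist1h1e in replicate 2. In that library the nearest island lay 29 bases from Hist1h1e. Hist1h1d was covered to 0%, 48.5%, 45.0% and 57.7%, and its island in epithelium replicate 2 had the lowest density of all islands over the histone genes, 21.9 reads per kb.

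Histone genes known for expression in the testis did not behave alike. Hist1h2ba (chr13:23933773-23934156) and Hist1h2aa (chr13:23934462-23934851) were without an island in all 4 libraries, the only such histone genes, against 35.9% of all protein-coding genes. The nearest island lay 171173, 169573, 16773 and 14845 bases from Hist1h2ba. Their stem-loops and promoter motifs were present. The testis linker gene Hist1h1t, inside Hist1-C, was covered to 0%, 79.5%, 100% and 100%. The island over it in fiber replicate 1 also covered Hist1h4c and had a density of 23.6 reads per kb, the lowest of the islands over histone genes in that library.

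Histone genes that lie head to head shared their islands. In 13 pairs a minus-strand gene lay to the left of a plus-strand gene with starts within 1 kb, at a median of 268 bases apart (range 176 to 660). Of these pairs, 12 were an H2A and an H2B gene and 1 was Hist1h2bh with Hist1h3f. Both genes of a pair had an island in 10, 11, 12 and 12 pairs, neither had in 3, 2, 1 and 1, and in no library did just 1 gene of a pair have an island. Wherever both had an island, the same island overlapped both bodies, in whole or in part, and held the midpoint between the starts. Partners are therefore no independent observations. Their starts lay closer together than most islands are long, and no such share was taken for other neighbouring genes, so the sharing cannot be called particular to these pairs. The pairs without an island were Hist1h2ba with Hist1h2aa in all 4 libraries, Hist1h2ak with Hist1h2bn and Hist1h2bh with Hist1h3f in epithelium replicate 1, and Hist1h2ae with Hist1h2bg in epithelium replicate 2.

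Counting each island once, 24, 30, 30 and 33 islands lay over histone genes. Their number did not separate the compartments (fiber to epithelium ratio 1.17, exact permutation test, p = 0.67). The widest reach was 4, 3, 5 and 5 genes in an island. These islands covered 73300 ± 2970 bases in epithelium and 152300 ± 3536 in fibers (SD, n = 2 libraries). In fibers these islands held 2.08 times as many bases and 2.06 times as many reads. Their median length was 2750 ± 354 bp in epithelium and 4500 ± 141 bp in fibers (p = 0.33, again the smallest possible, by the exact permutation test). The longest was 5400 and 4600 bp in the epithelium libraries and 9800 and 9200 bp in the fiber libraries. At start sites with an island in all 4 libraries, the fiber island was longer than the epithelium island at 37 of 38 histone genes (97.4%), with a median ratio of 2.00, and at 93.8% of 1349 protein-coding genes, with a median ratio of 2.10. The ratio at the histone genes was close to that of all genes. Genes were counted here, so an island shared by neighbouring genes entered more than once.

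Density, the number of reads per kb of island, differed by a few percent between the compartments. The read counts are raw and not scaled for library depth, so their ratio is no measure of the H3.3 level. Counting each island once, the median was 34.2, 34.9, 33.6 and 32.3 reads per kb, without overlap between the compartments and with a fiber to epithelium ratio of 0.954 (p = 0.33, the smallest the exact permutation test allows here). Counted by gene, so that shared islands entered more than once, the compartments overlapped. The median over the histone genes with an island was 34.2, 35.6, 34.5 and 32.9 reads per kb, 34.9 ± 1.03 in epithelium and 33.7 ± 1.11 in fibers (SD, n = 2 libraries), a fiber to epithelium ratio of 0.966 with p = 0.67 in the same exact permutation test. At start sites with an island in all 4 libraries, the fiber island was the denser at 13 of 38 histone genes (34.2%) and at 68.6% of all 1349 genes. Here too genes were counted, so a shared island entered more than once. Within each library, however, the islands over histone genes stood above most others in density. Their median density was 1.22 ± 0.024 times the library median in epithelium and 1.20 ± 0.038 times in fibers, and lay at the 89.9th, 90.5th, 88.4th and 81.0th percentile of the islands of its library. Above the library median were 20 of 24, 25 of 30, 28 of 30 and 31 of 33 islands. Against islands that hold any gene's start, the ratio was 1.17, 1.20, 1.17 and 1.10. The median length of the islands over histone genes was 0.789, 0.833, 0.846 and 1.15 times that of all islands of the library. Whether length bears on these density ratios was not tested.

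**Figure D3:**
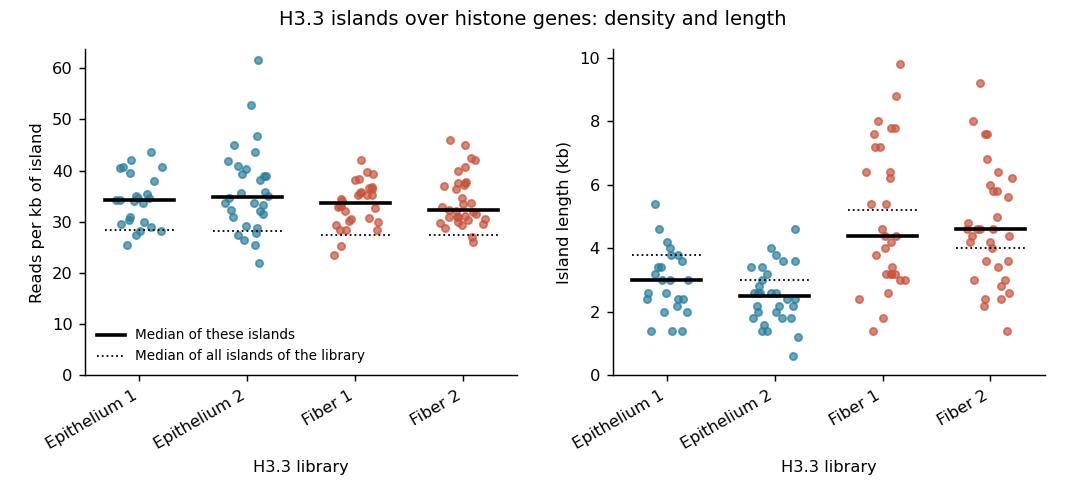
Reads per kb (left) and length in kb (right) of each H3.3 island over a histone gene (points) in the 4 libraries; solid bars are medians of these islands and dotted bars medians of all islands of the library. The density medians of 32.3 to 34.9 reads per kb lie above the dotted bars in all 4 libraries, and fiber islands are the longer.

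The 2 densest islands were short and came from epithelium replicate 2. An island of 600 bp over Hist1h3e (chr13:23561801-23562400) held 37 reads in epithelium replicate 2, or 61.7 per kb, and had no counterpart in epithelium replicate 1. An island of 1400 bp over Hist1h2bl and Hist1h2ai (chr13:21715401-21716800) held 74 reads there, or 52.9 per kb. At this pair all libraries had an island, at 37.9, 52.9, 35.2 and 46.0 reads per kb, higher in replicate 2 of both compartments.

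Islands were most frequent at and just after the start of the histone genes. The median body of 539 bp is shorter than the islands over these genes, so start and body cannot be told apart here. In epithelium replicate 2 the share was highest 200 bases downstream of the start, at 70.1%. At the start itself, 68.7%, 67.2%, 91.0% and 95.5% of the genes were inside an island. At 2000 bases upstream the values were 25.4%, 23.9%, 52.2% and 62.7%, and at 2000 bases downstream 17.9%, 25.4%, 49.3% and 52.2%. For all protein-coding genes the values at the start were 13.1%, 15.3%, 38.3% and 43.6%. At 2000 bases upstream they were 7.67%, 7.44%, 23.9% and 23.5%. At 10000 bases upstream, 5.97%, 8.96%, 35.8% and 31.3% of the histone genes were inside an island. Of all protein-coding genes, 4.43%, 4.83%, 13.7% and 13.3% were inside an island at that distance. The histone value in epithelium replicate 1 thus lay near that of all genes, and both fiber values lay above it. An island that far from a histone gene can be that of a neighbouring histone gene.

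**Figure D4:**
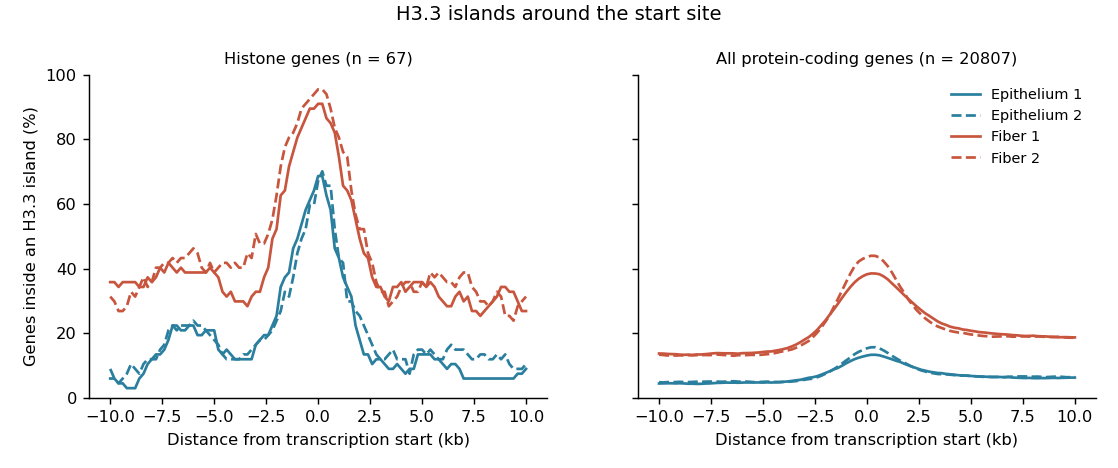
Percent of genes inside an H3.3 island (vertical axis) by distance from the transcription start in kb (horizontal axis, in steps of 200 bases) for the histone genes (left) and all protein-coding genes (right), with a line per library. At the start, the histone genes reach 67.2% to 68.7% in epithelium and 91.0% to 95.5% in fibers, against 13.1% to 43.6% for all genes.

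Histone genes expressed outside S phase had an island in similar shares but were covered less. Of the 11 replication-independent genes, 7, 7, 10 and 10 had an island. Their median body was 6051 bp, against 539 bp at the replication-dependent genes. Islands covered a mean of 32.0%, 37.4%, 76.5% and 73.1% of their bodies, beside 57.8%, 62.0%, 81.3% and 88.1% at the replication-dependent genes. H3f3a and H3f3b, which encode H3.3 itself, were covered to 71.0%, 45.3%, 86.3% and 80.2% and to 80.8%, 61.0%, 86.8% and 84.1%, with both fiber values of each gene above its epithelium values. H2afz, H2afv and H2afj had islands in the fiber libraries alone, and H2afz, which encodes the H2A.Z variant, was wholly covered in both. H2afj lies beside Hist4h4, and in both fiber libraries the island over Hist4h4 reached into H2afj. Hist4h4 itself had an island in every library. Cenpa, the gene of the centromeric H3 variant, had no island in any library. The density at these genes, a median of 29.6, 26.1, 28.9 and 28.8 reads per kb, was below that at the replication-dependent genes in every library.

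Of 16 genes for the transcription of histone genes and the 3' end processing of their mRNAs, 4, 4, 11 and 14 had an island, that is 25.0%, 25.0%, 68.8% and 87.5% beside the 27.2%, 32.0%, 53.5% and 59.5% of all protein-coding genes. Islands covered a mean of 5.25%, 2.05%, 16.2% and 21.9% of their bodies, beside 8.61%, 9.04%, 23.3% and 23.1% for all genes. Slbp, whose product binds the stem-loop, had an island in all 4 libraries, over 6.7%, 7.8%, 11.2% and 39.9% of its body. Npat, a coactivator of histone genes at the histone locus body, had none in epithelium and covered shares of 3.1% and 14.4% in fibers. Casp8ap2, Lsm11 and Cdk2 likewise had islands in the fiber libraries alone, and Coil, the gene of coilin, in the epithelium libraries alone, over 16.9% and 2.6% of its body.

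Near-identical copies limit which gene an island can be credited to. Stretches of 75 bases, the read length, that occur more than once in the assembled genome made up at least 10% of the body at 51 of the 67 genes and at least 50% at 27. Hist2h2aa2, Hist1h2bq, Hist1h2ao, Hist1h2ap and Hist1h2br were wholly repeated, so their values are uncertain between copies. The 16 genes with under 10% repeated sequence had an island in 62.5%, 81.3%, 93.8% and 93.8% of cases, and the other 51 in 70.6%, 74.5%, 90.2% and 98.0%. The fiber values were above the epithelium values in both sets. Annotated bodies also overlap, the longest being the 37455 bp of Hist1h2be, which overlaps the 3' end of Hist1h1e and was covered to 9.4%, 11.6%, 13.5% and 9.2%.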

How the data were processed

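The authors mapped the H3.3 ChIP-seq reads (75 nt) to mm10 with BWA and called islands with SICER per the labels, named as SICER2 in the study's methods; version numbers, duplicate handling and the use of the input were not given in the sources used here. The deposited lists hold, per library, each island's position and read count (raw counts, not normalized), with lengths in steps of 200 bp. Reads in islands numbered 1331369, 1430373, 5041885 and 5359085. Library depth outside islands is not known, and read counts also carry any duplicates and the differences between replicates.

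An island was assigned to every protein-coding gene (GENCODE vM21) whose body it overlapped by at least 1 bp. Density was reads per kb of island, and coverage the percent of the body inside islands. Compartments were compared by the exact permutation test, two-sided, over 2 libraries each, where p-values measure the spread between these libraries. Every H3 gene, the extremes of each type and cluster, the Hist3, Hist4 and testis genes, and the listed related genes were eligible to be named; genes picked after their values were seen are those with the densest or shortest islands and those with replicates at odds. Repeated stretches were looked up in GRCm38.p6 on both strands. Scripts were tested on simulated data with planted islands, copies and stem-loops (Python 3.11.15, numpy 2.4.6, numba 0.67.0). Genes and lists were chosen with earlier results of these data known. Alternatives are given in the closing section.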

Additional observations from a re-analysis of the deposited data

How the results depend on the processing

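The direction of all 7 compared results was kept under every alternative run. With 1 library left out, the fiber minus epithelium difference in histone genes with an island ranged from 17.9 to 25.4 percentage points and the density ratio from 0.944 to 0.989. Weighted by overlap with the genes, the density ratio was 0.998 (exact permutation test, p = 0.67), so the compartments hardly differed in density there. In the paired comparison (replicate block), the difference stayed 21.6 percentage points for genes with an island, 24.8 for body coverage, and the density ratio 0.966; with 2 pairs the smallest p is 0.50, and nothing in the labels says that equal replicate numbers share a batch. The excess of the histone genes over all genes in epithelium was 53.2 percentage points when islands had to cover 50% of the body, 53.7 for start sites, 53.4 with bodies widened by 5 kb, and 60.3 against genes of up to 1 kb, a background chosen after seeing the data. In fibers it was 65.1, 52.3, 35.7 and 73.2 in the same order, 48.6 for islands of at least median density, 48.1 with equal numbers of islands, 37.2 for genes with under 10% repeated stretches and 43.3 against genes no longer than the longest histone gene. Density over the library median in epithelium was 1.14 for islands of at least median density, 1.11 for genes with under 10% repeated stretches and 1.19 when weighted by overlap; in fibers it was 1.09, 1.12 and, with equal numbers of islands, 1.07. The cause of these shifts was not tested. Reads outside islands were not used here, so H3.3 signal below the caller's threshold was not measured.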
